A study of Mus musculus with 7 samples.

Results

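Cells with neutrophil secondary granule RNA were a small population among the sorted bone marrow LSK cells of this study. A cell was counted here when at least 4 of S100a8, S100a9, Camp, Ngp, Ltf and Lcn2 had a UMI (a unique molecular identifier, which stands for 1 captured RNA molecule), their sum was at least 30 UMIs, and Camp, Ngp and Ltf together had at least 2. Barcodes entered with a minimum of 1000 UMIs and of 500 genes, and with no more than 10% mitochondrial UMIs; they are called kept cells below. It found 159 cells among 24430 kept cells (0.651%), which came from 36465 deposited barcodes. The cells were chosen by their measured UMIs of the 6 genes, so the levels of these genes are given as a description and are not tested against other cells.

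The libraries were single-cell RNA libraries of bone marrow cells flushed from tibia and femur after lysis of red cells, sorted as lineage-negative, Sca-1-positive and cKit-positive (LSK), the compartment of stem cells and early progenitors. There were 3 libraries of B4galt1 full knockout mice, with the genotype 129S1/C57Bl/6, B4-/-, and 4 of wild-type mice of the genotype 129S1/C57Bl/6. Both groups share the mixed background, and the labels give no age. The labels do not say which antibodies made up the lineage gate, how many mice gave each library, or whether animals were pooled, so p-values measure only the spread between these libraries.

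Neutrophils fill their granules in order as they mature. Primary (azurophil) granule proteins such as myeloperoxidase (Mpo), neutrophil elastase (Elane), proteinase 3 (Prtn3) and cathepsin G (Ctsg) are made first, in promyelocytes. Secondary (specific) granule proteins such as lactoferrin (Ltf), the cathelicidin Camp, neutrophilic granule protein (Ngp) and lipocalin 2 (Lcn2) follow in myelocytes and metamyelocytes under the transcription factor C/EBP-epsilon, and gelatinase granule proteins such as Mmp8 and Mmp9 come later. S100a8 and S100a9 form calprotectin, the abundant calcium-binding protein of the neutrophil cytosol. Cells of the secondary granule stage lie downstream of the LSK compartment.

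Promoters of the rule genes are shown because the genes were read together and are known targets of C/EBP factors. Camp, Ngp and Ltf lie on chromosome 9 (GRCm38, GENCODE M21): Camp at 109847379 to 109849617 on the minus strand, Ngp at 110419747 to 110423012 and Ltf at 111019271 to 111042767 on the plus strand. The letters TTGCNNAA (TTNNGCAA on the other strand), a C/EBP-like motif, were searched on both strands in the 250 bases before each start in RefSeq (GRCm38.p6). They were found in 4 of the 6 genes (S100a9, Ngp, Ltf and Lcn2, with 2 matches in Ngp), and in 3142 of 32851 such windows of all genes (9.56%). S100a8 and Camp held no match in this window. In them, 157 and 89 of its bases lie before the first base annotated as an exon in GENCODE M21. The Lcn2 match and 1 of the 2 Ngp matches lie past that point in their windows. The windows of Ngp, Ltf and S100a9 are printed 5′ to 3′ on the gene's strand up to the first base that GENCODE M21 annotates as an exon, with the match in capitals:
Ngp, chr9:110419558-110419746, plus strand: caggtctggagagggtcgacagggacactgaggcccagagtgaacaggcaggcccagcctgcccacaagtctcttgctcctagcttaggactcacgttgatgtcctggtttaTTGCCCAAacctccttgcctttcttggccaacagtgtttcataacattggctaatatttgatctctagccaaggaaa
Ltf, chr9:111019042-111019270, plus strand: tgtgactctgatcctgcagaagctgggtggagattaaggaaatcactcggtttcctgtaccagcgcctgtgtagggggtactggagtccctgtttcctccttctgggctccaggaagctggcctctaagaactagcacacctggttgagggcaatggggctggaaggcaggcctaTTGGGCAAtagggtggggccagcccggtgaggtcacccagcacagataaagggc
S100a9, chr3:90695722-90695971, minus strand: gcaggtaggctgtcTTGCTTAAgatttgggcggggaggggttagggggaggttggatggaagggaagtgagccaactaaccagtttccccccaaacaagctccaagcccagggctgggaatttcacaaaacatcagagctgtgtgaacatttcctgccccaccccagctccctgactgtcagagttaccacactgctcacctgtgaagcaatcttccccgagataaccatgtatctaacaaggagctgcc
The match in Ltf lies on the minus strand, where its letters read the same as the printed match in Ngp. A match describes letters in a window, and no binding was measured in these libraries.

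Several properties of the libraries bear on these cells. The barcode sequences fell into 2 lists: list A held knockout 1 and 2 and wild type 1, 2 and 3, and list B held knockout 3 and wild type 4. A library held between 14970791 and 89747946 UMIs in all, and between 1172 and 8862 kept cells. In list A, 32.4% to 49.9% of barcodes were kept, and in list B 98.3% and 96.2%. No barcode of a counted cell occurred in another library, and no 2 libraries shared more than 88 barcodes. B4galt1 RNA, summed over the counted cells, was at 67.4, 159 and 17.6 CPM (a gene's UMIs scaled to a common total of the summed cells) in knockout 1 to 3 and at 89.0, 77.1, 97.2 and 24.1 CPM in wild type 1 to 4. These ranges overlapped, and the 3′ tags may lie outside the deleted part, so they do not check the genotype. S100a8 RNA was also found outside the counted cells. In knockout 1, an S100a8 UMI was present in 21.7% of cells with Dntt, a lymphoid progenitor gene (median 8170 UMIs). It was present in 34.0% of all its uncounted cells (median 10967 UMIs), and in 1.53% to 11.8% of uncounted cells elsewhere. Uncounted cells include those with primary granule RNA (the comparison cells defined below), of which 50.4% had an S100a8 UMI in knockout 1. S100a8 was at 183 CPM in all uncounted cells of knockout 1, at 255 CPM in those with primary granule RNA and at 27.8 CPM in those with Dntt. In the uncounted cells of the other libraries it was at most 30.8 CPM. The part of RNA from other cells in the counted cells was not tested.

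The number of counted cells differed widely between libraries of 1 label. Knockout 1 held 75 of them, 2.44% of its kept cells (95% exact binomial interval 1.93% to 3.05%, which covers counting error only). Knockout 2 held 8 (0.464%, 0.20% to 0.912%) and knockout 3 held 9 (0.131%, 0.0601% to 0.249%). Among the wild-type libraries, wild type 1 held 21 (1.69%, 1.05% to 2.57%), wild type 2 held 11 (0.939%, 0.469% to 1.67%), wild type 3 held 29 (1.93%, 1.30% to 2.76%) and wild type 4 held 6 (0.0677%, 0.0249% to 0.147%). The highest share was a knockout library and the lowest a wild-type one, so the ranges of the labels overlapped. Both libraries of list B lay below all 5 of list A. The rule counts UMIs, so it depends on depth. With cells thinned to 3000 UMIs the shares ran from 0.0294% to 1.49% with the knockout label. With the wild-type label they ran from 0.0345% to 1.72%, so the highest was then a wild-type library and the lowest a knockout one.

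The mean share was 1.01% ± 1.25 (SD, n = 3) with the knockout label and 1.16% ± 0.840 (SD, n = 4) with the wild-type label. The difference, knockout minus wild type, was -0.145 percentage points, smaller than the spread between libraries (two-sided exact permutation test over 35 splits, p = 0.886; 0.886 adjusted over the 2 shares tested). Within list A the means were 1.45% ± 1.40 (n = 2) and 1.52% ± 0.518 (n = 3), with an exact permutation p of 1. List B has 1 library of each label and gives no test. Without wild type 1, wild type 3, knockout 2 or knockout 3 in turn, the difference changed sign, and without knockout 1 it was -0.859 percentage points.

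**Figure D1:**
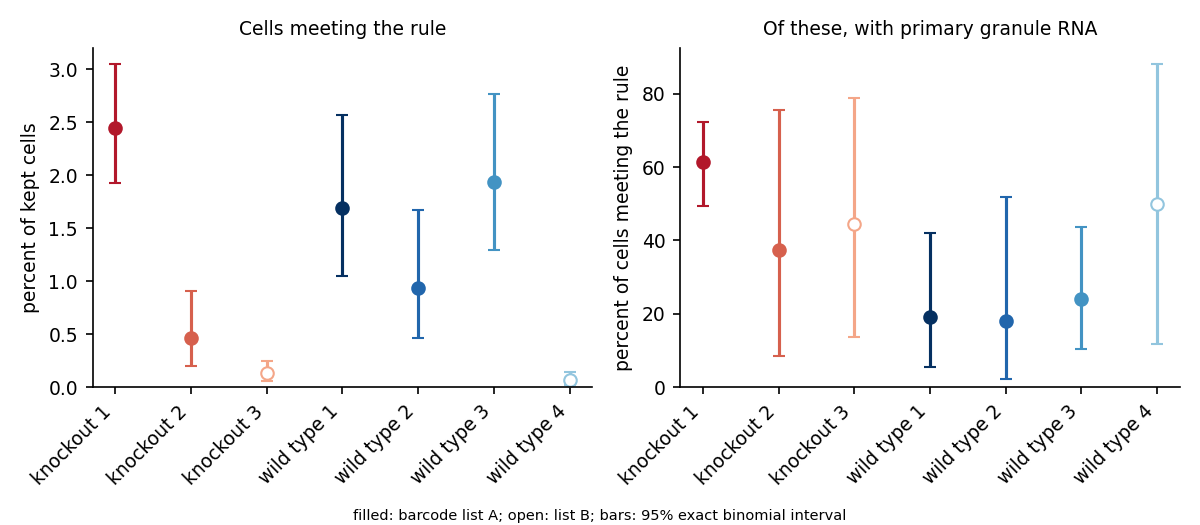
Share of kept cells that met the rule (left) and share of those cells with at least 10 primary granule UMIs (right) by library, in percent. Points are libraries, bars are 95% exact binomial intervals, and filled and open points mark barcode lists A and B; both list B libraries lie at the bottom on the left, and knockout 1 is at 61.3% on the right.

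The 6 rule genes made up a large part of the RNA of these cells in list A. S100a9 was at 60428 and 109764 CPM in the summed counts of knockout 1 and 2, and at 113585, 89840 and 124118 CPM in wild type 1 to 3. Camp was at 8891 and 29962 CPM in knockout 1 and 2 and at 33082, 25326 and 37852 CPM in wild type 1 to 3. Ltf, which encodes an iron-binding protein, was at 1622 and 3740 CPM in knockout 1 and 2 and at 7542, 8573 and 4514 CPM in wild type 1 to 3. Knockout 1 had the lowest level of all 3 genes among these 5 libraries, and 46 of its 75 cells were of the primary set defined below. In that set its S100a9 was at 37533 CPM, against 47826 to 99230 CPM in the other list A libraries. In the middle set it was the highest, at 190695 CPM against 122669 to 139701 CPM.

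List B stood apart for the same genes. In knockout 3 the levels were 1909 CPM for S100a9, 1003 for Camp and 35.2 for Ltf. In wild type 4 they were 18558, 8036 and 1303 CPM, and these sums rest mostly on 1 of its 6 cells. That cell held 1316, 610 and 106 UMIs of the 3 genes, and no other cell of wild type 4 held more than 131, 21 and 2. The median share of a cell's UMIs from the 6 genes was 12.9%, 25.2% and 0.427% in knockout 1 to 3, and 32.1%, 29.7%, 32.1% and 1.15% in wild type 1 to 4. Of the 159 cells, 96 had a UMI of all 6 genes and 143 of at least 5. Just inside the minimum, 6 cells had a sum of 30 to 39 UMIs, and just outside it 4 cells that met the other conditions had 20 to 29. A further 77 kept cells had a sum of at least 30 UMIs but did not meet the other conditions, and 75 of them had at least 10 primary granule UMIs.

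The name neutrophil lineage was checked on genes the rule did not use. For this, the 4 libraries with at least 10 counted cells (knockout 1 and wild type 1 to 3, with 136 cells) were compared with all other kept cells of the same library, as log2 ratios of CPM with 1 added. This contrast follows from how the cells were chosen and has no test. Of 11026 genes with a mean of at least 5 CPM on either side, 1169 (10.6%) were higher in the counted cells of all 4 libraries and 5551 (50.3%) were lower in all 4. The median log2 ratio of these genes was -0.66.

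Secondary granule genes were high throughout, and late neutrophil genes in part. Of 17 late neutrophil genes over the minimum of 5 CPM, 11 were higher in all 4 libraries and 1 was lower (median log2 ratio 3.11). Of 15 other secondary granule genes, 14 passed that minimum and all 14 were higher in all 4 libraries, with a median log2 ratio of 6.70. The exception was Ptx3, at 0 UMIs. Chil3, a chitinase-like protein, was at 2321 CPM in knockout 1 and at 8321, 7448 and 4889 CPM in wild type 1 to 3, against 19.6 CPM in the other cells of knockout 1 and 3.90 to 5.49 CPM in those of wild type 1 to 3. Lyz2, lysozyme, was at 1908 CPM in knockout 1 and at 9861, 7232 and 6285 CPM in wild type 1 to 3. All 6 genes of the NADPH oxidase, the enzyme of the respiratory burst, were higher in all 4 libraries (median 3.26). Its membrane subunit Cybb led with a median log2 ratio of 7.48 and its small GTPase Rac2 was lowest with 1.74.

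Outside the rule genes, the 15 genes with the largest median ratios among 599 genes with a mean of at least 200 CPM were Wfdc21, Chil3, Fcnb, Cd177, Ifitm6, Abca13, Lrg1, Cybb, Aff2, Chil1, C3, Clec4a2, Mcemp1, Cebpe and Trem3. Their medians ranged from 10.56 for Wfdc21 to 6.32 for Trem3. Fcnb, ficolin-B, a lectin of immature neutrophils, was at 859 CPM in knockout 1 and 1407, 748 and 1346 CPM in wild type 1 to 3, against at most 11.4 CPM in the other cells. Cd177, a neutrophil surface protein, was at 239 CPM in knockout 1 and 656, 848 and 403 CPM in wild type 1 to 3. Each of these 15 genes was higher in all 4 libraries.

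Transcription factors of granulopoiesis separated into high and low members. Of 12 factors, 4 were higher in all 4 libraries and 6 were lower. Cebpe, the factor of the secondary granule programme, was at 422 CPM in knockout 1 and 656, 308 and 464 CPM in wild type 1 to 3, against 29.6 CPM in the other cells of knockout 1 and 1.88 to 4.78 in those of wild type 1 to 3. Cebpd, Cebpb and Spi1, the gene of PU.1, had median log2 ratios of 4.32, 1.77 and 1.15. Irf8, a factor of monocytes and dendritic cells, had -3.20, and the progenitor factors Meis1, Myb and Runx1 had -2.57, -1.44 and -1.12. Gfi1, a repressor needed for neutrophil formation, was higher in 3 of the 4 libraries.

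Most markers of other cell types were low in the same 4 libraries, with exceptions. None of 7 monocyte genes was higher in all 4, and Csf1r, the receptor of the monocyte growth factor, was at 5.39 CPM in knockout 1 and at 0 in wild type 1 and 2, with 1 UMI in wild type 3. Wild type 3 was an exception for Fn1, at 158 CPM against 11.3 CPM in its other cells, and for the antigen presentation genes Cd74, at 72.0 against 45.1 CPM, and H2-Aa, at 61.2 against 41.1 CPM. The 9 lymphoid genes summed to 11.1 to 23.6 CPM in the counted cells and to 86.9 to 313 CPM in the other cells. Of 7 macrophage genes, C1qa, C1qb and C1qc were at 0 in the counted cells of all 7 libraries, and 2 were higher than in the other cells in all 4, Hmox1 with 1 to 5 UMIs and Vcam1, an adhesion protein. Vcam1 was at 118 CPM in knockout 1 and 77.9, 7.71 and 39.6 CPM in wild type 1 to 3. Of 7 T and NK cell genes, Cd3e was at 0, but the 2 over the minimum of 5 CPM had a median log2 ratio of 1.68. The granule protein gene Nkg7 was at 637 CPM in knockout 1 and 217, 54.0 and 130 CPM in wild type 1 to 3, against 222, 78.8, 64.5 and 90.3 CPM in the other cells, and Cd3d was at 4.72, 16.7, 0 and 10.8 CPM with at most 7 UMIs in a library. Of 6 eosinophil genes, Ear2 was higher in all 4 libraries, with 3 to 7 UMIs in each, and Epx, eosinophil peroxidase, was at 0. The part of other cells in these values was not tested.

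**Figure D2:**
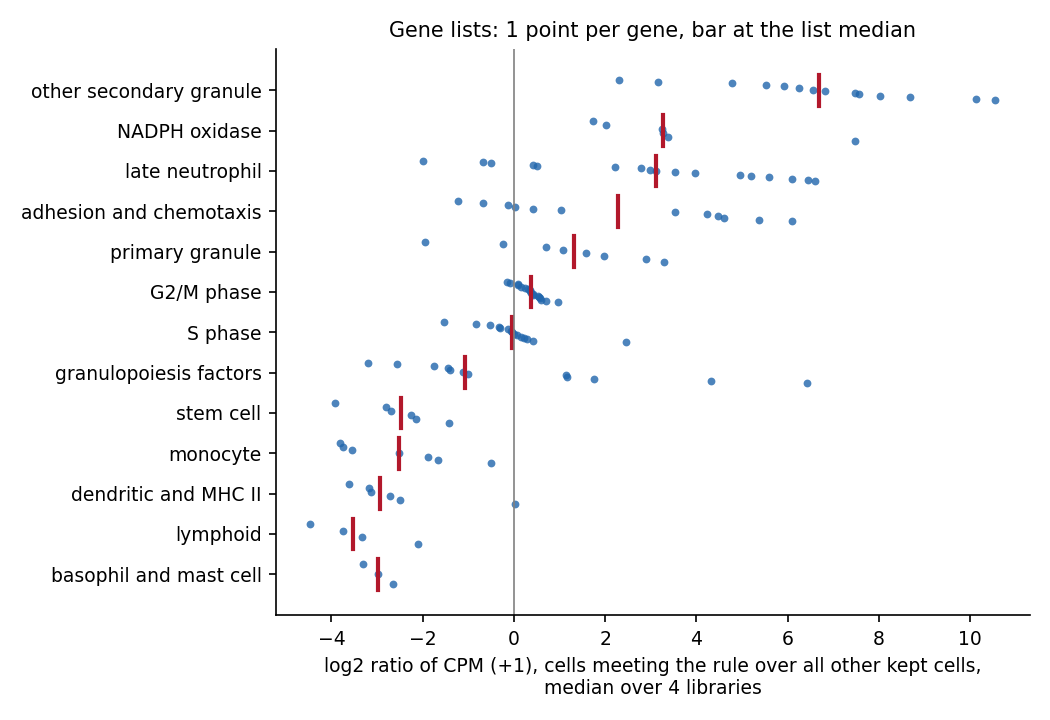
Log2 ratio of CPM (with 1 added) of the counted cells over all other kept cells for genes of 13 fixed lists, as the median over 4 libraries; each point is a gene and each bar a list median. Secondary granule and NADPH oxidase genes lie to the right of 0, and stem cell, lymphoid and basophil and mast cell genes to the left.

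The genes of the LSK gate were read in the same cells. Kit RNA was at 53.2 CPM in knockout 1 and 66.7, 146 and 90.0 CPM in wild type 1 to 3, below the 168 to 314 CPM of the other cells of these libraries. Ly6a, the gene of Sca-1, was at 7.41, 11.1, 7.71 and 7.20 CPM, against 16.7 to 31.2 CPM. Itgam, the gene of CD11b, was higher than in the other cells in all 4 libraries (median log2 ratio 4.24). Ly6g, the neutrophil surface antigen of the Gr-1 antibody, was at 51.2 CPM in knockout 1 and 289, 69.4 and 140 CPM in wild type 1 to 3, against at most 0.13 CPM in the other cells. Across all libraries 50 of 159 counted cells had a Ly6g UMI.

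The galactosyltransferase family to which B4galt1 belongs was split in these cells. B4galt1 and its relatives B4galt3 and B4galt6 were higher than in the other cells in all 4 libraries, and 3 of the other relatives were lower in all 4. B4galt6, a lactosylceramide synthase, was at 247 CPM in knockout 1 and 122, 46.3 and 86.4 CPM in wild type 1 to 3. Muc13, the mucin named in the title of the study, was lower, at 14.8 CPM in knockout 1 and 16.7, 77.1 and 21.6 CPM in wild type 1 to 3, against 91.1 to 126 CPM in the other cells.

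The counted cells differed from uncounted cells with primary granule RNA. Comparison cells were uncounted cells with at least 3 of Mpo, Elane, Prtn3 and Ctsg detected and at least 30 UMIs of them in sum, which numbered 3580 over 7 libraries and 53 to 1151 in the 4 libraries used. Against them 1210 of 11026 genes (11.0%) were higher in all 4 libraries and 4804 (43.6%) lower. All 14 detected secondary granule genes outside the rule were again higher, with a median log2 ratio of 6.98, and 12 of 17 detected late neutrophil genes were higher. Of 8 primary granule genes none was higher in all 4 and 1 was lower (median 0.07). The 18 G2/M genes had a median of -0.20, with 1 gene higher in all 4 and none lower.

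Within the counted cells the granule genes did not move as 1 block. The cells were placed in 3 sets: 69 cells with at least 10 UMIs of Mpo, Elane, Prtn3 and Ctsg together (the primary set), 18 of the remaining cells with at least 5 UMIs of Retnlg and Mmp8, genes of late neutrophils (the late set), and the other 72 (the middle set). The late cut was chosen after its values were seen, so the sets are ranges along the granule genes and not cell types. Near the cuts, 12 cells had 5 to 19 primary granule UMIs, and 9 cells below the primary cut had 3 to 7 UMIs of Retnlg and Mmp8. Knockout 1 held 46, 14 and 15 cells of the primary, middle and late set, knockout 2 held 3, 5 and 0, and knockout 3 held 4, 5 and 0. Wild type 1 held 4, 14 and 3, wild type 2 held 2, 9 and 0, wild type 3 held 7, 22 and 0, and wild type 4 held 3, 3 and 0.

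RNA content was highest in the primary set and lowest in the late set. In list A the median cell had 24158 UMIs and 4802.5 genes in the primary set, 7276 UMIs and 2174 genes in the middle set, and 3864 UMIs and 1362.5 genes in the late set. Ribosomal protein genes gave a median of 18.5%, 3.79% and 2.35% of UMIs, and the 6 rule genes 8.35%, 34.4% and 27.7%. At least 5 UMIs of the 18 G2/M genes were present in 61 of 62 cells of the primary set, 38 of 64 of the middle set and 0 of 18 of the late set, which allows a share of up to 16.7% by counting alone. Depth is lower in the same order. Per UMI, in knockout 1 the G2/M genes were at 2782, 5254 and 220 CPM in the 3 sets, and in wild type 1 at 1599, 2981 and 133 CPM.

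Camp and Ltf were at different levels in the primary set. In wild type 3, Camp was at 40490 CPM in the primary set and 36200 CPM in the middle set, while Ltf was at 1094 and 6656 CPM. In wild type 1, Camp was at 28238, 37081 and 24210 CPM in the primary, middle and late set and Ltf at 337, 10898 and 12504 CPM. In knockout 2, Camp was at 29293 and 30481 CPM in the primary and middle set and Ltf at 51.9 and 6595 CPM. Knockout 1 had less Camp in its primary set, 4848 CPM against 36865 CPM in its middle set, and Ltf was at 418 and 9090 CPM. Wild type 2, with 2 cells in its primary set, had Camp at 14729 and 33606 CPM and Ltf at 4869 and 11468 CPM in the primary and middle set. Those 2 cells had 31 and 10 primary granule UMIs among 29678 and 27216 UMIs, with Elane at 0. The primary granule genes summed to 1652 CPM in them, against 29046 CPM in the primary set of wild type 1, so they hold little primary granule RNA. Ltf was thus lower in the primary than in the middle set of all 5 libraries, while Camp was close in both sets of wild type 1 and 3 and knockout 2 and lower in the primary set of knockout 1 and wild type 2. The primary set of knockout 2 held 1 Ltf UMI.

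Other genes that the cuts did not use also differed between the sets. Chil3 was highest in the middle set, at 1229, 10460 and 2361 CPM in knockout 1 and 3669, 11582 and 3858 CPM in wild type 1. Cebpe was at 403, 643 and 205 CPM in knockout 1 and 774, 655 and 200 CPM in wild type 1. From the primary to the middle set Cebpe thus rose in knockout 1 and fell in wild type 1. Ly6g was at 12.0 CPM in the primary set of knockout 1, with 143 and 582 CPM in its middle and late sets, and at 0, 323 and 1197 CPM in wild type 1. Cxcr2, the chemokine receptor of mature neutrophils, was at 17.6, 167 and 677 CPM in knockout 1. Retnlg and Mmp8, which define the late set, reached 8688 and 1322 CPM there in knockout 1 and 2394 and 1197 CPM in wild type 1.

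**Figure D3:**
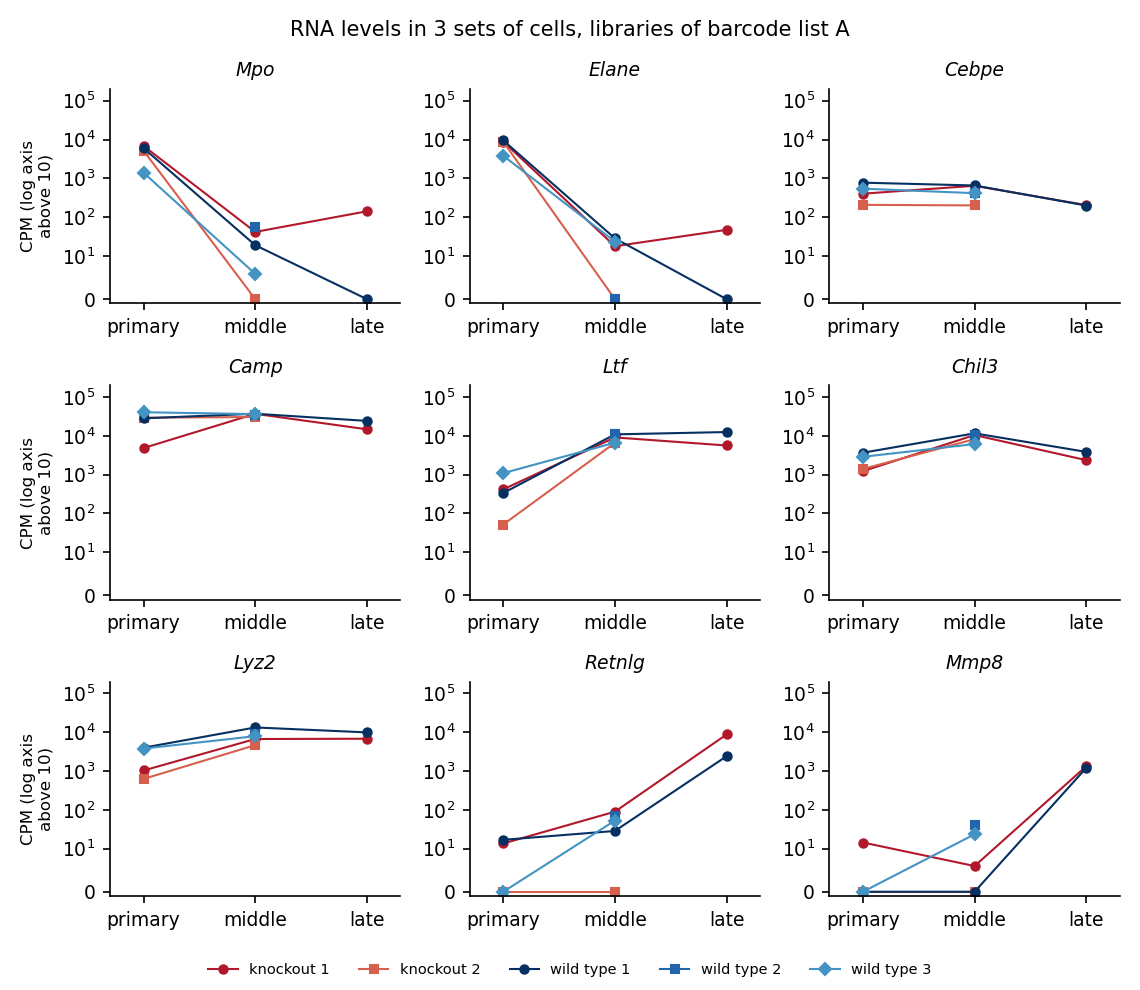
CPM of 9 genes in the primary, middle and late sets, for list A libraries with at least 3 cells in a set; the axis is linear from 0 to 10 and logarithmic above. Mpo, Elane, Retnlg and Mmp8 helped to define the sets; Camp is already high in the primary set of wild type 1 and 3 and knockout 2, where Ltf is low.

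Single cells showed the same opposition as a description. Across the 75 cells of knockout 1 the share of UMIs from the rule genes and that from the 4 primary granule genes had a Spearman correlation of -0.79, and it was -0.60 over 21 cells of wild type 1 and -0.49 over 29 cells of wild type 3. Both shares have the same total in their denominator, and cells of a library share its depth and free RNA. The total of UMIs per cell moved with them in knockout 1, with -0.65 for the rule genes and 0.73 for the primary granule genes.

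Some counted cells had little secondary granule RNA. In 27 of 159 cells the 6 genes gave under 2% of the UMIs: 12 in knockout 1, 1 in knockout 2, 8 in knockout 3, 2 in wild type 3 and 4 in wild type 4. These cells were large, with a median of 26398 UMIs, against 9711.5 in the other 132. All 12 in knockout 1 and the 1 in knockout 2 were in the primary set. Of the 27, 24 had a UMI of Kit, Cd34 or Flt3, genes of stem and progenitor cells, and 10 had a Chil3 UMI, against 55 and 116 of the other 132.

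In knockout 3 the data went against the name. The 9 counted cells of knockout 3 had the 9 lymphoid genes at 1126 CPM in sum, against 273 CPM in its other cells, with Flt3 at 422 CPM and Cd34 at 326 CPM. Only 1 of the 9 had a UMI of Cebpe and 1 of Chil3. The lowest, median and highest shares of rule gene UMIs in its cells were 0.163%, 0.427% and 14.3%, and 1 cell lay above 2%. The monocyte genes were at 484 CPM in sum, against 188 CPM in its other cells. In wild type 4, 4 of 6 cells lay under 2%, all 4 with a Kit, Cd34 or Flt3 UMI. Of its 6 cells 0 had a Ly6g UMI, but 4 had one of Cebpe and 5 one of Chil3. Its lymphoid genes were at 36.2 CPM in sum, against 379 CPM in its other cells. The part of other cells and of free RNA in these cells was not tested. Scrublet called 13 doublets among all kept cells, 2 of them counted here, which is too few to trust, and leaving out the 1348 cells with the highest scores removed 6 of the 159.

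**Figure D4:**
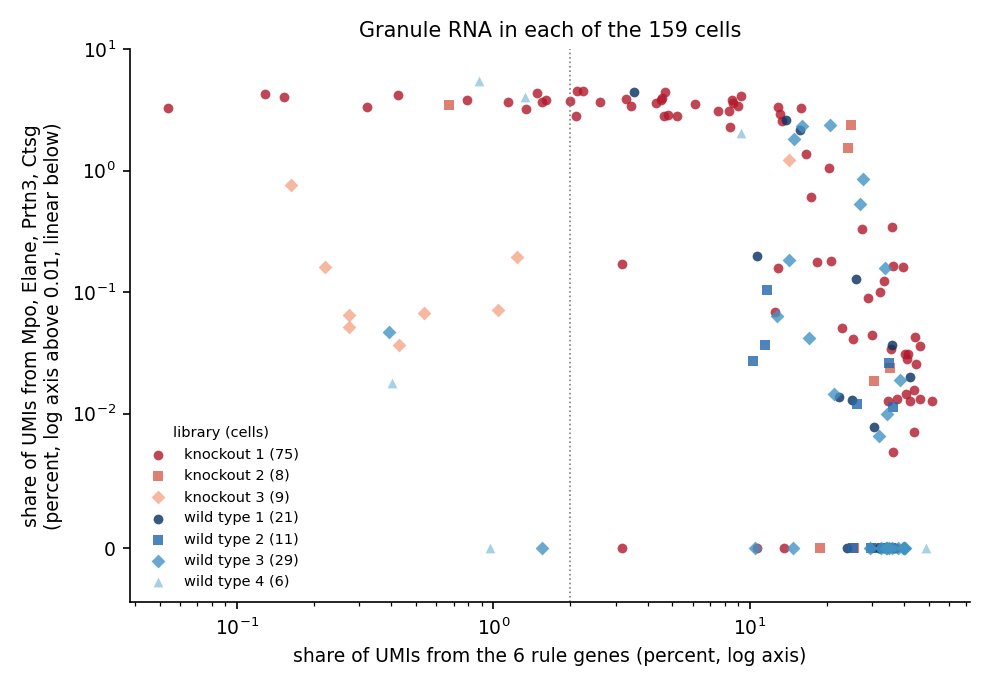
Each point is 1 of the 159 cells, with the percent of its UMIs from the 6 rule genes (log axis) against the percent from Mpo, Elane, Prtn3 and Ctsg (logarithmic above 0.01, linear below). Colours and shapes mark libraries, and the dotted line stands at 2%; 8 of 9 cells of knockout 3 lie to its left.

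The share of counted cells with primary granule RNA was the second comparison between labels. It used the 4 libraries with at least 10 counted cells, all of list A, so the knockout label had 1 library. In knockout 1, 46 of 75 cells (61.3%, exact binomial interval 49.4% to 72.4%) had at least 10 UMIs of Mpo, Elane, Prtn3 and Ctsg. In wild type 1 it was 4 of 21 (19.05%, 5.45% to 41.9%), in wild type 2 it was 2 of 11 (18.2%, 2.28% to 51.8%) and in wild type 3 it was 7 of 29 (24.1%, 10.3% to 43.5%). Knockout 1 lay 40.9 percentage points above the wild-type mean of 20.5% ± 3.22 (SD, n = 3). The intervals cover counting error within a library and not the spread between libraries, so they do not compare the labels. The exact permutation test gave p = 0.25, as low as 4 splits can give (0.5 adjusted over the 2 shares).

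Knockout 2 had 3 of 8 such cells (37.5%, 8.52% to 75.5%), knockout 3 had 4 of 9 (44.4%) and wild type 4 had 3 of 6 (50%). Over all 5 libraries of list A the difference was 28.96 percentage points (exact permutation p = 0.1, as low as 10 splits can give), and over all 7 it was 19.9 (exact permutation p = 0.143). With cells thinned to 3000 UMIs, which 67 of 75 cells in knockout 1 and 19, 10 and 26 in wild type 1 to 3 had, the shares were 61.2% in knockout 1 and 11.7% ± 10.3 (SD, n = 3) in the wild type. For wild type 2 it was 0 of 10 thinned cells. The kept cells as a whole differed in the same direction: primary granule comparison cells were 37.5%, 33.7% and 17.3% of kept cells in knockout 1 to 3 and 8.92%, 6.57%, 3.53% and 4.75% in wild type 1 to 4. Their part in the result was not tested.

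Late cells were seen in 2 libraries. They were 15 of 75 counted cells in knockout 1 (20%, exact interval 11.6% to 30.8%) and 3 of 21 in wild type 1 (14.3%, 3.05% to 36.3%). Wild type 3 had 0 of 29, which allows a share of up to 10.3%, and wild type 2 had 0 of 11, which allows up to 27.3%. No comparison between labels was made of a set chosen after its values were seen.

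The expression of the counted cells was compared between the labels on counts summed per library. The planned limit of 10 cells left the knockout with 1 library, so the sums of all 7 libraries, with 6 to 75 cells each, were fitted. CPM values in this comparison are scaled with TMM factors. The quasi-likelihood test of edgeR with Benjamini-Hochberg adjustment called 0 of 2312 genes (0.0%), with 25 at an unadjusted p under 0.05, and DESeq2 called 0 with 44. In 53 of the 2312 genes (2.29%) the labels did not overlap.

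The rule genes chose the cells, so their levels by label are a description with no test. Ltf was at 1918, 4650 and 45.5 CPM in knockout 1 to 3 and at 9387, 9652, 5927 and 1715 CPM in wild type 1 to 4. Knockout 2 lay above wild type 4 for Ltf, and the labels overlapped for all 6 genes. In wild type 4, 1 cell held 106 Ltf UMIs and no other cell held more than 2. Of 14 other secondary granule genes tested, 13 were lower with the knockout label (median -0.96, against -0.01 over all genes tested) and 0 were called. Of 7 primary granule genes, 6 were higher (median 0.48), and of 14 G2/M genes, 12 were higher (median 0.50), again with 0 called. B4galt1 had a log2 difference of -0.15 ± 0.67 SE.

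With no gene called, the 5 genes of smallest p in each direction with a mean of at least 50 CPM and no overlap are named, none past the adjusted test. Higher with the knockout label were Banf1, a chromatin-binding protein of the nuclear envelope, Yeats4, Pdap1, Ola1 and the mitotic kinase Aurkb, with log2 differences of 1.27, 1.18, 1.12, 1.01 and 0.93. Lower were Plaur, the urokinase receptor, Dgkd, Mecom, Calcrl and Lyz2, with -1.93, -1.97, -2.31, -1.75 and -1.97. Banf1 was at 245, 254 and 410 CPM in knockout 1 to 3 and 69.2, 122, 142 and 175 CPM in wild type 1 to 4. Plaur was at 51.8, 28.2 and 11.4 CPM in knockout 1 to 3 and 194, 122, 170 and 79.4 CPM in wild type 1 to 4.

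Lyz2 was the most abundant of the 10. It was at 2256, 3579 and 569 CPM in knockout 1 to 3 and 12274, 8141, 8253 and 4654 CPM in wild type 1 to 4 (-1.97 ± 0.78 SE; adjusted p = 0.997 in edgeR, and 0.143 in list A alone). Within the sets of list A, in plain CPM, Lyz2 was lower in each knockout library than in each wild-type one. The sets are parts of the sums in which Lyz2 was chosen for having no overlap, so they are no separate support. In the middle set Lyz2 was at 6648 and 4624 CPM in knockout 1 and 2 and at 13186, 8844 and 7862 CPM in wild type 1 to 3. In the primary set it was at 1028 and 623 CPM in knockout 1 and 2 and at 3971, 5168 and 3768 CPM in wild type 1 to 3. Knockout 2 had 3 cells there, and wild type 2 had 2 cells, with Elane at 0. In the late set, with 1 library of each label, it was at 6752 CPM in knockout 1 and 9844 CPM in wild type 1. When cells of the primary set were left out, the fitted difference in list A shrank to -0.67 (adjusted p = 0.921 in edgeR).

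**Figure D5:**
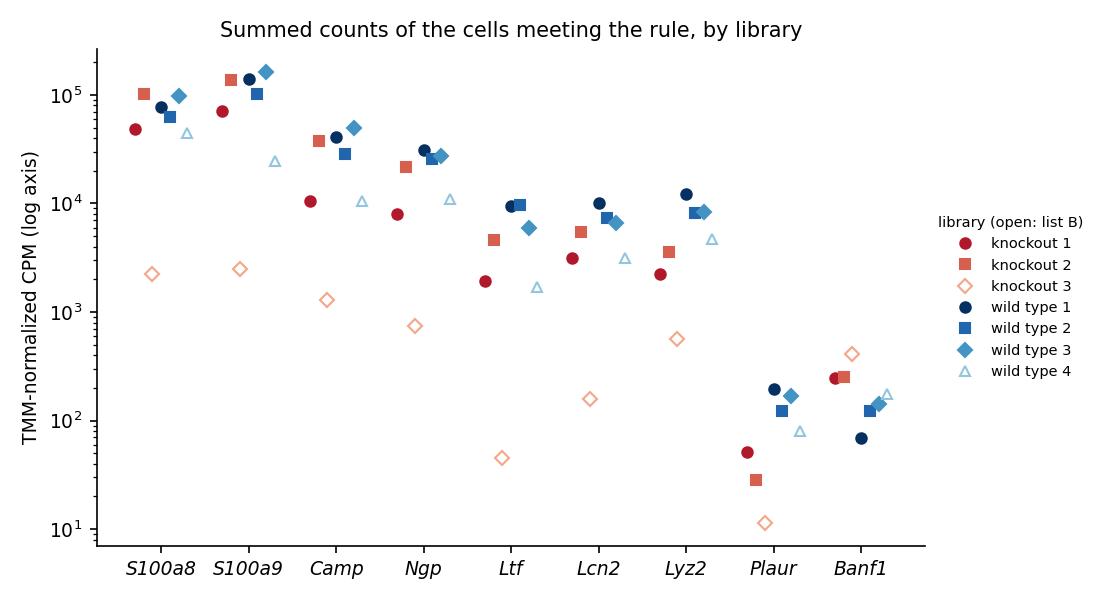
TMM-normalized CPM (log axis) of the 6 rule genes, Lyz2, Plaur and Banf1 in the summed counts of the counted cells, 1 point per library, with open points for list B. The rule genes overlap between labels; Lyz2 and Plaur lie lower, and Banf1 higher, in the 3 knockout libraries than in the 4 wild-type ones, without passing the adjusted test.

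Within list A alone, edgeR called 21 of 3312 genes (0.634%), 7 higher and 14 lower with the knockout label. In 831 of the 3312 genes (25.1%) the labels did not overlap. The lower genes were led by Msi2, an RNA-binding protein of stem and progenitor cells, and included Meis1, Mecom and Hlf, stem cell transcription factors, and Angpt1, a growth factor made by stem cells. Msi2 was at 59.6 and 51.3 CPM in knockout 1 and 2 and at 334, 943 and 519 CPM in wild type 1 to 3 (log2 difference -3.35 ± 0.59 SE; adjusted p = 0.00147 in edgeR). Angpt1 was at 31.0 and 51.3 CPM in knockout 1 and 2 and at 180, 1265 and 387 CPM in wild type 1 to 3 (-4.15 ± 0.83 SE; adjusted p = 0.0334 in edgeR). Wild type 2 was highest for both, and 2 cells, its primary set, held 56894 of its 129708 UMIs. The 7 genes of the stem cell list, Mecom and Hlf among them, summed to 1178 CPM in those 2 cells. In the middle set they summed to 220 CPM in wild type 2, and to 247 and 328 CPM in wild type 1 and 3. In the middle set of knockout 1 and 2 they summed to 5.96 and 121 CPM.

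These falls stand beside higher levels of the same RNA in the surrounding cells. For 13 of the 14 lower genes, Dgkh excepted, the counted cells were below the other kept cells in every list A library. Msi2 was at 562 and 1127 CPM in the other cells of knockout 1 and 2 and at 1665, 2249 and 1949 CPM in those of wild type 1 to 3, so it was lower with the knockout label there too. A Kit, Cd34 or Flt3 UMI was present in 37 of 75 and 1 of 8 counted cells of knockout 1 and 2, and in 7 of 21, 4 of 11 and 16 of 29 of wild type 1 to 3. The part of RNA from other cells in the called genes was not tested.

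The 7 higher genes included Prss57, a protease of primary granules, at 430 and 282 CPM in knockout 1 and 2 and 154, 38.3 and 83.6 CPM in wild type 1 to 3 (2.01 ± 0.48 SE; adjusted p = 0.0334 in edgeR). Plac8, a gene of myeloid progenitors, was at 4004 and 1691 CPM in knockout 1 and 2 and at 1121, 353 and 638 CPM in wild type 1 to 3 (2.03 ± 0.51 SE; adjusted p = 0.0486 in edgeR). The others were Nhp2, Emc6, Sdf2l1, Atp5g1 and Mif. All 7 primary granule genes tested in list A were higher with the knockout label (median 2.01, 1 called), and so were all 15 G2/M genes (median 0.67, 0 called), against a median near 0 over all genes. Primary set cells were 46 of 75 and 3 of 8 in knockout 1 and 2, and 4 of 21, 2 of 11 and 7 of 29 in wild type 1 to 3.

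Leaving out the primary set cells changed the list A calls. EdgeR then called 10 of 2059 genes, of which 4 were among the 21: Msi2, Angpt1, Mecom and 2610307P16Rik, all lower. The 4 genes then higher with the knockout label were Cxcr2 and C5ar1, chemoattractant receptors of mature neutrophils, Slfn4 and Cmah. Their log2 differences were 2.14, 1.94, 1.97 and 2.42, and 15 of the 29 remaining knockout 1 cells were of the late set, against 3 of 17 in wild type 1 and none in wild type 2 and 3. With cells of under 2% rule gene UMIs left out, Msi2 was the only gene called in list A.

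Barcodes outside the cell limits were looked at last. Another 54 barcodes met the marker rule but not those limits: 25 in knockout 1, 1 in knockout 2, 17 in knockout 3, 2 in wild type 1, 6 in wild type 3 and 3 in wild type 4. In knockout 1, 23 of the 25 failed on mitochondrial RNA (median 19.3%), their rule genes gave a median of 25.9% of UMIs, and 17 of the 25 had at least 5 UMIs of Retnlg and Mmp8. In knockout 3 all 17 failed on depth, with 517 to 723 UMIs, and their rule genes gave 7.03% to 32.5% of UMIs (median 16.6%). All 17 lay above 8 of the 9 counted cells of the same library. With every deposited barcode included, the mean shares were 0.747% ± 0.764 (n = 3) and 0.501% ± 0.309 (n = 4), with an exact permutation p of 0.714.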

How the data were processed

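The authors deposited raw UMI counts per gene and barcode for 7 libraries. Cell Ranger 7.0.0, Seurat 4.4.0 and the build mm10 are named in the submitters' processing notes, and the Single Cell 3′ v2 kit per the labels' protocols; no filter on cells is given in the sources used here. The 2 barcode lists, found in the files, leave in doubt whether that kit made both. Each library had 32285 genes, of which 32235 matched GENCODE M21 by ID.

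The cells, gene lists and comparisons were chosen with earlier results of these data known. Shares were compared by two-sided exact permutation tests over libraries. Counts of the chosen cells were summed per library and fitted with edgeR 4.0.16 (TMM, filterByExpr, robust quasi-likelihood test, no covariate, Benjamini-Hochberg, threshold 0.05) in R 4.3.3; DESeq2 1.42.0 was an alternative. A minimum of 10 cells per library was set at first, which left 1 knockout library, so the fit of every library with a cell is reported. The fit was tested on simulated data. CPM values are UMIs scaled to a common total of the summed cells. The sums held 44122 to 1484603 UMIs per library, so levels under about 100 CPM rest on few UMIs in the smaller ones. Genes were named by a rule: the rule genes, genes of the fixed lists, the 15 largest ratios to other cells with at least 200 CPM, and in the label comparison the largest called changes or, with none called, the 5 smallest p in each direction with at least 50 CPM and no overlap; genes called within list A were named after their values were seen. Scrublet (scanpy 1.11.5) scored doublets and none was removed from the cells reported. Replicate numbers were checked as pairs and did not pair the libraries.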

Additional observations from a re-analysis of the deposited data

Results flagged for a closer look

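Of 17 measures checked over the 4 wild-type libraries, 2 had 1 library far from the others, and chance alone gives this in about 1 in 20 such groups. In wild type 4 the median share of UMIs from the rule genes was 1.15%, against 29.7% to 32.1% in wild type 1 to 3, and the median ribosomal protein share was 26.7%, against 3.40% to 4.90%. Wild type 4 has 6 counted cells and is of barcode list B.

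Rule-meeting barcodes outside the cell limits numbered 54, which the comparisons of kept cells do not use; 25 of them were in knockout 1 and 17 in knockout 3.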

How the results depend on the processing

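The difference in the share of kept cells had no stable sign: it was -0.145 percentage points as reported and 0.246 with every deposited barcode. With cells thinned to 3000 UMIs it was -0.441, and with each library left out it ran from -0.859 to 0.296. No exact permutation p fell under 0.05. The share with primary granule RNA kept its direction under all alternatives run, from 19.9 points over all 7 libraries to 49.5 with thinned cells. With each wild-type library left out it was 39.7 to 42.7 points. Every alternative keeps knockout 1, the only knockout library of the main comparison, so none shows the direction without it. In list B knockout 3 (44.4%) lay below wild type 4 (50%). All libraries of the main comparison are of list A, so list A alone is the same set.

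EdgeR called 0 genes as reported, 1 with no gene filter (Nxph1), 21 in list A alone, 0 with the list as a covariate, and 0 with each library left out. Added after seeing the data, 4 were called with cells of at least 2% rule gene UMIs, 10 in list A without the primary set, and 1 in list A with at least 2%. In the first of these settings knockout 3 was 1 cell with 1148 UMIs and wild type 4 was 2 cells with 14722 UMIs. With a replicate block 0 of 4032 genes were called; same-numbered libraries correlated at 0.22, 0.37 and -0.41, so the numbers do not pair them.

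For 17 named genes, the rule genes among them as a description only, 271 of 282 values kept direction and call, and 9 changed sign. In list A without the primary set, Plaur was at 0.48, Lcn2 at 0.21, S100a9 at 0.35, S100a8 at 0.53 and B4galt1 at 0.43. With each library left out, S100a8 ranged from -1.45 to 0.081 and B4galt1 from -0.65 to 0.32, both positive without knockout 3. S100a8 was at 0.14 in list A with at least 2%, and B4galt1 at 0.14 with a marker sum of at least 60 UMIs. The causes were not tested. The sums of knockout 2, 3 and wild type 4 rest on at most 8, 9 and 6 cells, which limits every label comparison.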
